A study of Mus musculus with 30 samples.

Results

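The transcripts described here are those of the cytosolic ribosomal proteins, the protein parts of the ribosome outside mitochondria. Members were all genes with a single annotated symbol that begins Rpl or Rps followed by a number, or Rplp0 to Rplp2, leaving out pseudogene symbols and the Rps6k kinases. The rule found 71 members among 17097 genes with a single symbol. Of these, 43 carry large-subunit names, 25 carry small-subunit names and 3 are the stalk proteins Rplp0, Rplp1 and Rplp2. The rule used names only, and where a gene had several probe sets, the one brightest on average across all 30 arrays was taken.

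A ribosome joins a small subunit, which reads the mRNA, to a large subunit, which forms the peptide bond, and the stalk of the large subunit recruits elongation factors. The subunits hold 1 copy of most of these proteins and are assembled in the nucleolus. Mammalian mRNAs for ribosomal proteins carry a terminal oligopyrimidine (TOP) tract at their start, through which mTOR signalling controls their translation, and growth and division of lymphocytes raise the demand for them. A few members have a paralogue with its own expression pattern, such as Rpl22l1 beside Rpl22. Rps19bp1 met the rule by its name, although it binds a ribosomal protein and is no ribosome subunit, and Rpl7l1 is a relative of Rpl7.

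All 30 arrays came from DO11.10 RAG2-/- BALB/c mice aged 8-10 weeks, whose T cells bear a transgenic receptor for an ovalbumin (OVA) peptide and whose lack of RAG2 leaves no other T or B cell receptors. CD4+ T cells, kept by magnetic negative selection, and CD11c+ cells, pulled out with microbeads, were both measured in 5 groups, each with 3 arrays. These were mice left unimmunised, mice primed with 100 µg of OVA in complete Freund's adjuvant (CFA) under the skin, primed mice given control IgG at 10 mg/kg (called igg), primed mice given abatacept at 10 mg/kg, and mice tolerised by OVA in their drinking water. Abatacept is CTLA-4 fused to an antibody tail and keeps CD80 and CD86 from engaging CD28. In the 3 primed groups cells were harvested on day 10 after immunisation. CD4+ T cells of the 3 primed groups came from axillary nodes, those of tolerised mice from mesenteric nodes, and those of unimmunised mice from nodes pooled with spleen, so tissue and treatment cannot be told apart in several CD4+ comparisons. CD11c+ cells came from pooled nodes and spleen throughout. The labels do not say whether arrays of a group are separate mice, so p-values here weigh differences only against the array-to-array spread, which may be technical.

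Values are log2 RMA signals, with array medians between 4.46 and 4.54, so a difference of 1 is a doubling. The defining T cell marker Cd3e ran from 10.7 to 11.6 on CD4+ arrays, and Itgax, which encodes CD11c, ran from 9.56 to 10.3 on CD11c+ arrays. Over 9 T cell markers the mean was lower in CD4+ unimmunised arrays, at 8.87 to 8.97. It was 10.10 to 10.22 in primed, 10.15 to 10.22 in igg, 10.12 to 10.23 in abatacept and 9.84 to 9.94 in tolerised CD4+ arrays. Transcripts of other cells moved with the groups. The CD4+ unimmunised arrays held 7 erythroid markers at a mean of 9.02 to 9.32 and 9 neutrophil markers at 9.91 to 10.2, against at most 4.59 and 5.35 in the other CD4+ groups. Among CD11c+ arrays, 8 CD11c+ cell markers averaged 8.09 to 8.16 in unimmunised mice, 9.15 to 9.22 in primed mice, 8.72 to 9.03 under igg, 8.32 to 8.51 under abatacept and 9.05 to 9.15 in tolerised mice. The salivary gene Amy1 lay more than 2 above the array median on 5 CD11c+ arrays (unimmunised 2, igg 2 and 3, abatacept 3, tolerised 3). The Y-linked gene Eif2s3y lay between 8.50 and 8.96 in primed and tolerised CD4+ arrays and in primed CD11c+ arrays, between 5.92 and 8.76 in CD11c+ igg arrays, and at most 2.84 in all other groups. The labels give no sex, and groups that differ in this gene may differ in sex as well as treatment. The part of sex was tested in no comparison.

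The promoters of the members that the later comparisons turn on are printed first, since their start region holds the letters that the TOP tract is read from. Each stretch runs from 60 bases before the annotated start to 20 bases from the start on, in the direction of the gene, from RefSeq on GRCm38.p6. Capitals mark CTTTC or CTTCC, short pyrimidine runs searched on the gene's strand from 20 bases before to 50 bases after the start, and CCGGAAG or its reverse CTTCCGG, the core letters bound by ETS factors. Rps26 (chr10:128626487-128626566, minus strand), Rps19 (chr7:24884532-24884611, plus), Rplp0 (chr5:115559407-115559486, plus), Rpl28 (chr7:4792905-4792984, plus) and Rps7 (chr12:28635934-28636013, minus) varied between conditions in CD11c+ cells. Rpl12 (chr2:32961652-32961731, plus) and Rpl22l1 (chr3:28805448-28805527, plus) set the cell types apart, and Rps27l (chr9:66946026-66946105, plus) was the only member called lower in CD4+ T cells than in CD11c+ cells. The start used for Rps27l, the first in the promoter table, lies inside the gene as RefSeq spans it (chr9:66944624-66949522), whereas those of the other 7 are at the gene's edge.
Rps26: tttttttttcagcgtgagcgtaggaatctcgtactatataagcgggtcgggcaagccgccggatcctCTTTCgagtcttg
Rps19: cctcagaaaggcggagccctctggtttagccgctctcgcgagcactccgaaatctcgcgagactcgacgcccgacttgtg
Rplp0: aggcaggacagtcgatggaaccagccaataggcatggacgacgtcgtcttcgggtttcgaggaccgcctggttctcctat
Rpl28: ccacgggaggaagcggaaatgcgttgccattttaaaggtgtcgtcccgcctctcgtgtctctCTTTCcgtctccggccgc
Rps7: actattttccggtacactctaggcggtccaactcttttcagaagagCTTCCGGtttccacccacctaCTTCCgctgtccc
Rpl12: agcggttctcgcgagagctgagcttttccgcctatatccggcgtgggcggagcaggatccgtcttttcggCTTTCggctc
Rpl22l1: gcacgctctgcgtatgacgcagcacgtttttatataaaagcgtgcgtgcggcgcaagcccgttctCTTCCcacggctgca
Rps27l: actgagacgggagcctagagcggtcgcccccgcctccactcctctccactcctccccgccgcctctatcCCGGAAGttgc

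Of the 71 members, 57 had a promoter in the RefSeq table, taken at the first start listed. A TOP-like run, CTTTC or CTTCC, lay in the start window of 36 of them (63.2%), against 21.7% of 27025 promoters of all genes. CTTTC was found in 25 (43.9%, against 8.85%) and CTTCC in 24 (42.1%, against 14.4%), each counted with or without the other. The ETS letters CCGGAAG, searched on both strands over 300 bases, were found in 23 (40.4%, against 9.12%), and they overlap CTTCC when read in reverse. AAGATGGC, the core of a YY1 site, was found on either strand in 4 (7.02%, against 2.88%). A match describes letters and not a bound site.

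Most members gave signals near the top of the arrays' range. The mean over 30 arrays was above 10 for 62 members, above 11 for 52 and above 12 for 9, and 63 members were in the top 5% of genes by signal. Rps21, Rps6 and Rps29, all small-subunit proteins, gave the highest means, 12.6, 12.4 and 12.4. The lowest were Rps15a at 5.05, Rpl39l at 4.56 and Rpl3l, a paralogue known from muscle, at 2.58, which was the one member too dim to be tested. Probe sets differ in how well they bind, so the order of signals is no order of mRNA amounts. The median SD within a group was 0.050.

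The mean of the 71 members was higher in CD4+ T cells than in CD11c+ cells in every condition, as the plot of member means by array shows. In CD4+ T cells the array means ran from 11.05 to 11.15 over all 5 groups, with group means of 11.10 ± 0.025 (SD, n = 3) in unimmunised, 11.07 ± 0.026 in primed and 11.09 ± 0.027 in tolerised mice. In CD11c+ cells the unimmunised arrays were the lowest, at 10.66, 10.67 and 10.74. Abatacept followed at 10.76 ± 0.018, then igg at 10.85 ± 0.040, primed at 10.89 ± 0.017 and tolerised at 10.94 ± 0.0047. Unimmunised, abatacept, igg or primed, and tolerised arrays did not overlap in this order, while igg and primed arrays did.

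**Figure D1:**
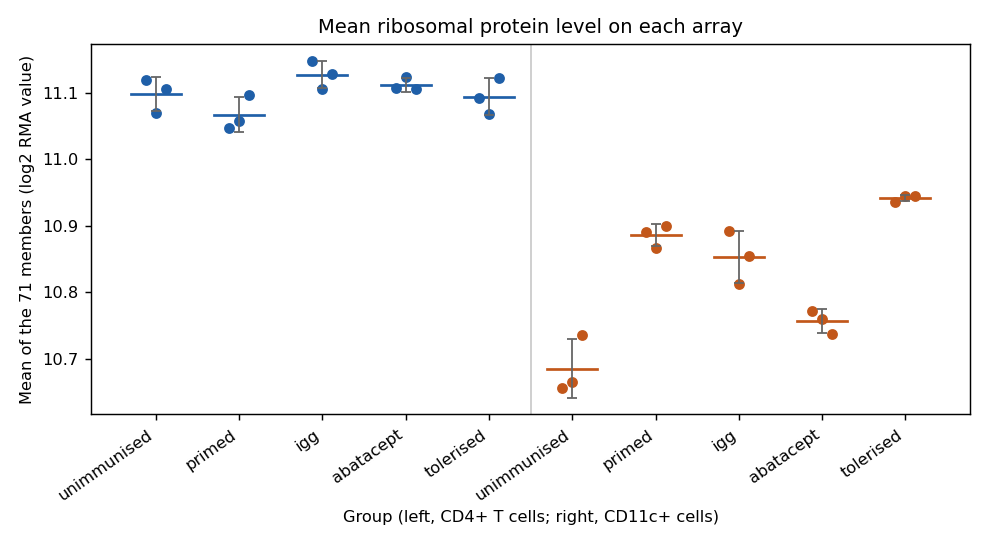
Mean log2 RMA signal of the 71 members on each array (points), with the group mean (coloured line) and SD of 3 arrays (grey bar), for CD4+ T cells (blue, left) and CD11c+ cells (orange, right). CD4+ means lie between 11.05 and 11.15 in every group, whereas CD11c+ group means run from 10.69 in unimmunised to 10.94 in tolerised mice.

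Cell types were compared with limma over all 30 arrays, by the mean of the 5 differences within a condition. In every condition but the unimmunised, the cell types also came from different tissues. Cell type and tissue cannot be told apart there. In tolerised and igg mice the cell types also differed in the Y-linked gene Eif2s3y, and the part of sex was not tested. Of 70 members tested, 65 were called at an adjusted p under 0.05 (64 higher in CD4+ T cells, 1 lower), where 83% of all 10838 genes tested were called. The median member difference was 0.26 and that of all genes 0.073. The call share therefore says little, and the direction is what the members had in common: among all genes 45.9% were called higher and 37.1% lower. Rpl22l1, the Rpl22 paralogue, ran from 9.63 through a median of 9.77 to 9.95 over the 15 CD4+ arrays and from 8.66 through 8.96 to 9.30 over the 15 CD11c+ arrays, a difference of 0.79 (SE 0.037, adjusted p = 5.829e-16). Its 2 sets of arrays did not overlap. Rpl12, a protein at the base of the stalk, lay between 10.95 and 11.23 in CD4+ and between 10.01 and 10.47 in CD11c+ arrays, a difference of 0.86 (SE 0.033, adjusted p = 1.073e-17). Rpl13a, which also acts outside the ribosome in inflammatory translational silencing, differed by 0.61 (SE 0.031) and Rpl8 by 0.60 (SE 0.022), both without overlap.

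All arrays of the 2 cell types were apart for 29 of the 70 members (20.8% of all genes), every one with CD4+ above. The other calls had overlapping arrays. The stalk proteins differed by 0.45 (Rplp0, SE 0.022), 0.50 (Rplp1, SE 0.028) and 0.28 (Rplp2, SE 0.025), and Rps6, the substrate of the S6 kinases, by 0.17 (SE 0.022). Among the brightest members, Rps21 differed by 0.14 (SE 0.023), while Rps29, at 0.011 (SE 0.023, adjusted p = 0.6642), did not pass. Rps15a showed the largest difference, 0.96 (SE 0.061), at signals of 4.73 to 5.79 in CD4+ and 4.42 to 4.79 in CD11c+ arrays, close to the array medians. Rps27l was the only member called lower in CD4+ T cells, by -0.61 (SE 0.042), although in unimmunised mice it was higher there.

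**Figure D2:**
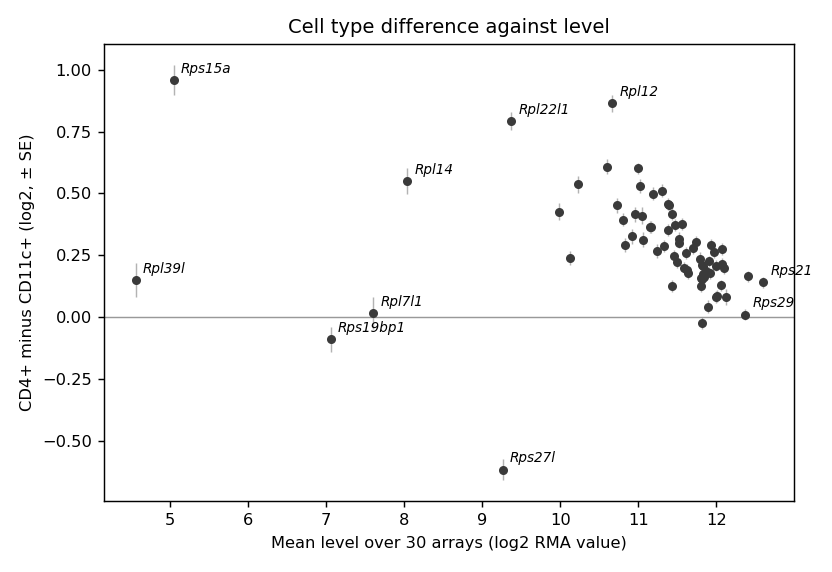
Difference between CD4+ T cells and CD11c+ cells (log2, ± SE, mean of 5 conditions) against the mean signal over 30 arrays for the 70 members tested. Most points lie above 0, Rps27l alone lies well below it, and the difference is smaller for members with higher signals (Spearman's rho -0.54 across members, which are not independent replicates).

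Taken condition by condition, the median member gap between the cell types was largest in unimmunised mice and smallest in tolerised mice. The medians over all genes also varied, at 0.080 in unimmunised, 0.0725 in primed, 0.079 in igg, 0.0068 in abatacept and 0.0013 in tolerised mice. The order of the gaps is therefore not one relative to all genes. Only in unimmunised mice did both cell types come from nodes and spleen, so the gaps also differ in tissue. Eif2s3y read 8.84 to 8.96 in CD4+ and 2.40 to 2.84 in CD11c+ tolerised arrays. Under igg it read 2.42 to 2.65 in CD4+ and 5.92 to 8.76 in CD11c+ arrays. In the other conditions its ranges overlapped between the cell types. The part of sex in the gaps was not tested. In unimmunised mice every CD4+ array was above every CD11c+ array for 64 of 70 members and below for 0, with a median difference of 0.40, where 38.9% of all genes lay above and 29.4% below. In tolerised mice it was above for 53 members (28.7% of all genes) and below for 2 (32%), with a median of 0.15. In primed mice 51 members lay above (39.1%) and 3 below (32.1%), with a median of 0.17. Under igg 59 lay above (39.3%) and 2 below (32.8%), with a median of 0.25. Under abatacept 63 lay above (35.1%) and 2 below (37.2%), with a median of 0.34.

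In CD11c+ cells, priming went with higher ribosomal protein transcripts. Of 70 members tested, 39 were called higher and 0 lower in primed than in unimmunised mice, where 38.6% of all 10203 genes tested were called, 25.5% higher and 13.2% lower. The median member difference was 0.20, against 0.086 over all genes. Rps26, of the mRNA exit side of the small subunit, read 11.12, 11.03 and 11.16 on the primed arrays and 10.55, 10.44 and 10.62 on the unimmunised ones. It rose by 0.57 (SE 0.079, fold 1.48, adjusted p = 0.0001494). Rps19, whose human gene is mutated in Diamond-Blackfan anaemia, read 9.99, 9.96 and 10.23 against 9.55, 9.57 and 9.66 and rose by 0.47 (SE 0.084). Rps10 rose by 0.43 (SE 0.078) and Rpl14 by 0.47 (SE 0.099), again with no overlap of arrays.

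The stalk moved with the subunits in primed CD11c+ cells. Rplp0, the protein to which Rplp1 and Rplp2 bind, read 11.32, 11.29 and 11.31 in primed and 10.88, 10.92 and 10.91 in unimmunised mice. It was higher in primed mice by 0.41 (SE 0.061, adjusted p = 0.0002499). Rplp2 rose by 0.25 (SE 0.061) and Rplp1 by 0.21 (SE 0.063). By subunit, 24 of 42 large-subunit members tested were called (median 0.21), 12 of 25 small-subunit members (median 0.16) and 3 of 3 stalk proteins. Among the members always described, Rps6 rose by 0.18 (SE 0.062), a call lost in 4 of 6 fits that leave out 1 array, while Rps21 (0.082, adjusted p = 0.2785) and Rps29 (-0.047, adjusted p = 0.5763) did not pass.

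Tolerised mice showed the largest values in CD11c+ cells. There 47 members were called higher and 0 lower than in unimmunised mice, where 48.6% of all genes were called (31.9% higher, 16.7% lower), with a median member difference of 0.28 against 0.097 over all genes. Rps19 read 10.25, 10.29 and 10.31 and rose by 0.69 (SE 0.084, fold 1.61, adjusted p = 2.703e-05). Rpl14 rose by 0.68 (SE 0.099) and Rps26, at 11.12, 11.17 and 11.21, by 0.63 (SE 0.079). Rps7, a small-subunit protein that can bind Mdm2, read 11.01, 11.05 and 11.01 against 10.34, 10.45 and 10.57 and rose by 0.57 (SE 0.070, adjusted p = 2.948e-05). All 3 stalk proteins rose, by 0.44 (Rplp0), 0.32 (Rplp1) and 0.31 (Rplp2). Tolerised and primed mice are compared here with the same 3 unimmunised arrays. Set directly against each other, they gave 0 called members of 70 with limma (6 at an unadjusted p under 0.05, all higher in tolerised), a median difference of 0.054, and 2.84% of all genes called. Across conditions, 51 of 70 members had their highest CD11c+ group mean in tolerised mice and 57 their lowest in unimmunised mice. No such count was made over all genes. Of 10203 genes tested, 6119 were higher in tolerised than in unimmunised mice.

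**Figure D3:**
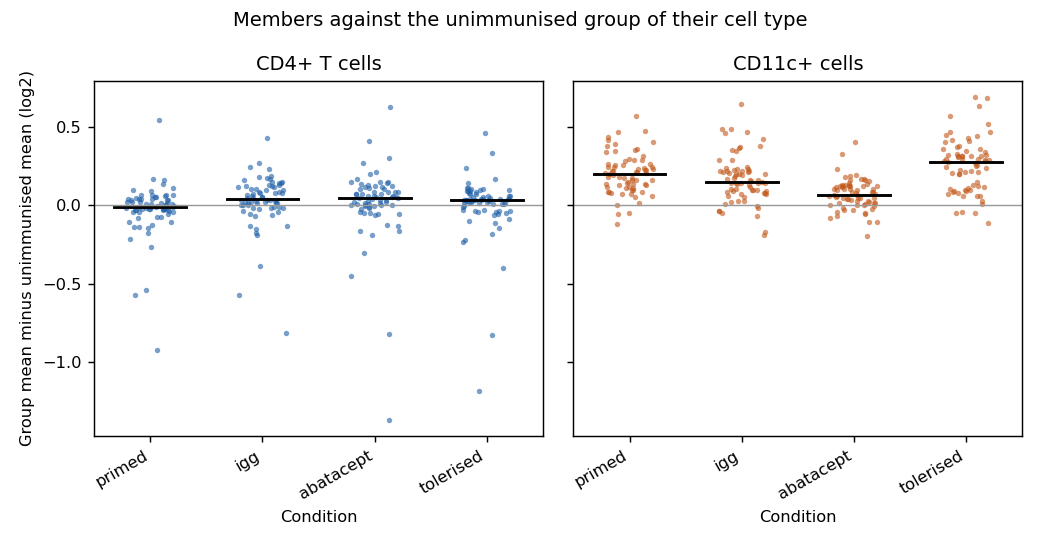
Group mean minus the unimmunised mean of the same cell type (log2) for each of the 70 tested members (points, spread sideways for legibility) in 4 conditions, with the median (black line). In CD11c+ cells the medians are 0.20 in primed, 0.15 in igg, 0.069 in abatacept and 0.28 in tolerised mice, and in CD4+ T cells they lie between -0.0082 and 0.047. The lowest CD4+ points are Rps27l.

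The CD11c+ rises depend on scaling in number. When each array was centred on the median of the genes tested, which removed a shift of 0.14 from both comparisons, 11 members were called in primed mice (10 higher, 1 lower, median 0.061) and 28 in tolerised mice (25 higher, 3 lower, median 0.14). Over all genes the split then turned from 2598 higher and 1343 lower to 1587 and 2309 in primed, and from 3252 and 1706 to 2136 and 2655 in tolerised mice. Without primed array 3 the primed count was 25, and without the 5 arrays high in Amy1 the counts were 18 and 29. The share of all genes called in these smaller fits is not given here, so the lower counts are no result about the members alone. The primed arrays also carried more of 9 neutrophil markers (9.15 to 9.38 against 6.22 to 7.37), of 9 T cell markers (6.87 to 7.07 against 6.03 to 6.68) and of 14 cell cycle genes (7.67 to 7.77 against 6.77 to 7.01), and less of 10 macrophage markers (9.73 to 10.00 against 10.44 to 10.52). In tolerised arrays the same lists read 8.91 to 10.2, 6.96 to 7.35, 7.55 to 8.24 and 8.99 to 9.74. Their part in the member changes was not tested, and fewer cells of a type cannot be told apart from less RNA per cell in these bulk samples. Eif2s3y read 8.53 to 8.64 in primed against 2.46 to 2.69 in unimmunised CD11c+ arrays, and Xist, the RNA of the inactive X, 4.12 to 4.84 against 11.37 to 11.52. In tolerised arrays they read 2.40 to 2.84 and 10.93 to 11.33. The part of sex in the member changes was not tested.

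Within primed mice, 6 of 70 members were called lower and 0 higher under abatacept than under control IgG in CD11c+ cells, where 15.3% of all genes were called (6.43% higher, 8.86% lower). The members' 8.57% is close to that background and is no result about them as a set. Of 70 members, 66 had a negative difference (median -0.091, against -0.024 over all genes). Rps19 read 9.78, 9.75 and 9.71 under abatacept and 10.16, 9.94 and 10.13 under igg, lower by -0.33 (SE 0.084, adjusted p = 0.01961). Rps26 read 10.70, 10.76 and 10.71 against 11.11, 10.85 and 11.04 and was lower by -0.28 (SE 0.079, adjusted p = 0.03293). Rpl28, a large-subunit protein, was lower by -0.27 (SE 0.075), Rpl24, which bridges the subunits, by -0.25 (SE 0.081, adjusted p = 0.04986) and Rplp0 by -0.23 (SE 0.061), and the sixth was Rps13. These calls were fragile: the count was 0 without igg array 1, igg array 3, abatacept array 1 or abatacept array 2, 1 without abatacept array 3, and 0 without the arrays high in Amy1, and the differences of Rps19, Rps26, Rpl28, Rpl24 and Rplp0 were negative in each case. The share of all genes called without these arrays is not given here. Markers of other cells moved with the same contrast. The 10 macrophage markers averaged 10.45 to 10.54 under abatacept against 9.87 to 10.31 under igg (4 of 10 called higher, 1 lower). The 9 T cell markers averaged 6.38 to 6.57 against 6.80 to 7.01 (8 of 8 tested without overlap, 1 called lower). All 8 CD11c+ cell markers were lower under abatacept, 6 of them called. The part of these markers in the member differences was not tested. Eif2s3y read 5.92 to 8.76 under igg and 2.37 to 2.72 under abatacept, and Xist 6.29 to 11.02 and 11.08 to 11.27. The part of sex was not tested here either.

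Against unimmunised mice the 2 antibody groups stood differently, in comparisons added after the data were seen and sharing the same 3 unimmunised arrays. Under igg 29 members were called higher and 0 lower (34.4% of all genes called, 23.9% higher and 10.5% lower), with Rpl14 at 0.65 (SE 0.099), Rpl7l1 at 0.49 (SE 0.13) and Rps19 at 0.48 (SE 0.084). Under abatacept limma called 0 (6 at an unadjusted p under 0.05; 2.34% of all genes called), and 1 without unimmunised array 3. The medians were 0.15 and 0.069, and both turned negative when arrays were centred, to -0.012 and -0.055, so their direction depends on scaling. The igg count was 12 without igg array 1, 14 without igg array 3, 16 without unimmunised array 1, 15 without unimmunised array 2, and 4 without the arrays high in Amy1. For these fits the share of all genes called is not given here. Between igg and primed mice 0 members were called (3 at an unadjusted p under 0.05; 0.0196% of all genes), with a median of -0.045.

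In CD4+ T cells the ribosomal protein transcripts as a set stayed close to their unimmunised level while many other genes differed. Of 70 members, 7 were called between primed and unimmunised mice (2 higher, 5 lower), where 47.4% of all 10322 genes tested were called (23.3% higher, 24.2% lower), and the median difference was -0.0082. In tolerised mice 9 were called (3 higher, 6 lower), where 49.5% of all genes were called (20.3% higher, 29.3% lower), with a median of 0.032. Under centring, which removed shifts of -0.15 and -0.22, the counts became 25 (22 higher, 3 lower) and 55 (53 higher, 2 lower), so the members' standing relative to the other genes depends on the scale. The all-gene split then went from 2403 higher and 2493 lower to 3968 and 1900, and from 2093 and 3021 to 4226 and 1973. The unimmunised CD4+ arrays are those with erythroid, neutrophil and macrophage transcripts. They also held the lowest mean of 9 T cell markers, of which 8 were called higher in primed and 7 in tolerised mice. The part of these transcripts in the differences was not tested. Eif2s3y read 2.46 to 2.70 in unimmunised, 8.50 to 8.82 in primed and 8.84 to 8.96 in tolerised CD4+ arrays. Xist read 11.07 to 11.34, 9.31 to 10.89 and 5.61 to 7.28 in the same order, and the part of sex was not tested.

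The members called in CD4+ T cells were few. Rps27l, a paralogue of Rps27 that p53 can induce, read 9.84, 9.65 and 9.94 in unimmunised mice, 8.78, 8.85 and 9.02 in primed mice and 8.63, 8.70 and 8.55 in tolerised mice. It fell by 0.92 (SE 0.096, adjusted p = 3.456e-06) and by 1.18 (SE 0.096, adjusted p = 3.351e-07) on the log2 scale. Rpl14 fell by 0.54 (SE 0.13) and by 0.82 (SE 0.13), and Rps19bp1 by 0.57 (SE 0.14) and by 0.40 (SE 0.14), the second a call lost in 4 of 6 fits that leave out 1 array. Rps12 fell by 0.26 and by 0.24 (SE 0.077), and Rpl19 rose by 0.17 in each (SE 0.060), calls that several alternatives ended. Rps13 rose by 0.24 (SE 0.069) in tolerised mice, a call that the mean of its probe sets ended (0.051, adjusted p = 0.5932), and Rps15a rose by 0.54 and 0.46 (SE 0.17) with overlapping arrays near the array median. The other called members were Rps2 in both comparisons and Rpl8 in tolerised mice.

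Between conditions that share no unimmunised arrays, CD4+ members differed little. Tolerised and primed mice gave 0 called members (1 at an unadjusted p under 0.05), where 14.7% of all genes were called, with a median of 0.033, and here too node and treatment cannot be told apart. Control IgG and primed mice gave 0 (6 at an unadjusted p under 0.05, all higher in igg; 0.0872% of all genes called). Abatacept and control IgG, both from axillary nodes, gave 1 called member where 16.7% of all genes were called. It was Rps27l, at 8.57, 8.35 and 8.42 under abatacept and 8.89, 9.08 and 9.01 under igg, which fell by 0.55 (SE 0.096, adjusted p = 0.00171) and stayed called without any single array. The members' median was -0.011, and it turned positive with a second quantile normalization (0.019) and with centring (0.14). Over the same arrays 14 cell cycle genes averaged 6.11 to 6.45 under abatacept and 7.90 to 8.28 under igg.

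**Figure D4:**
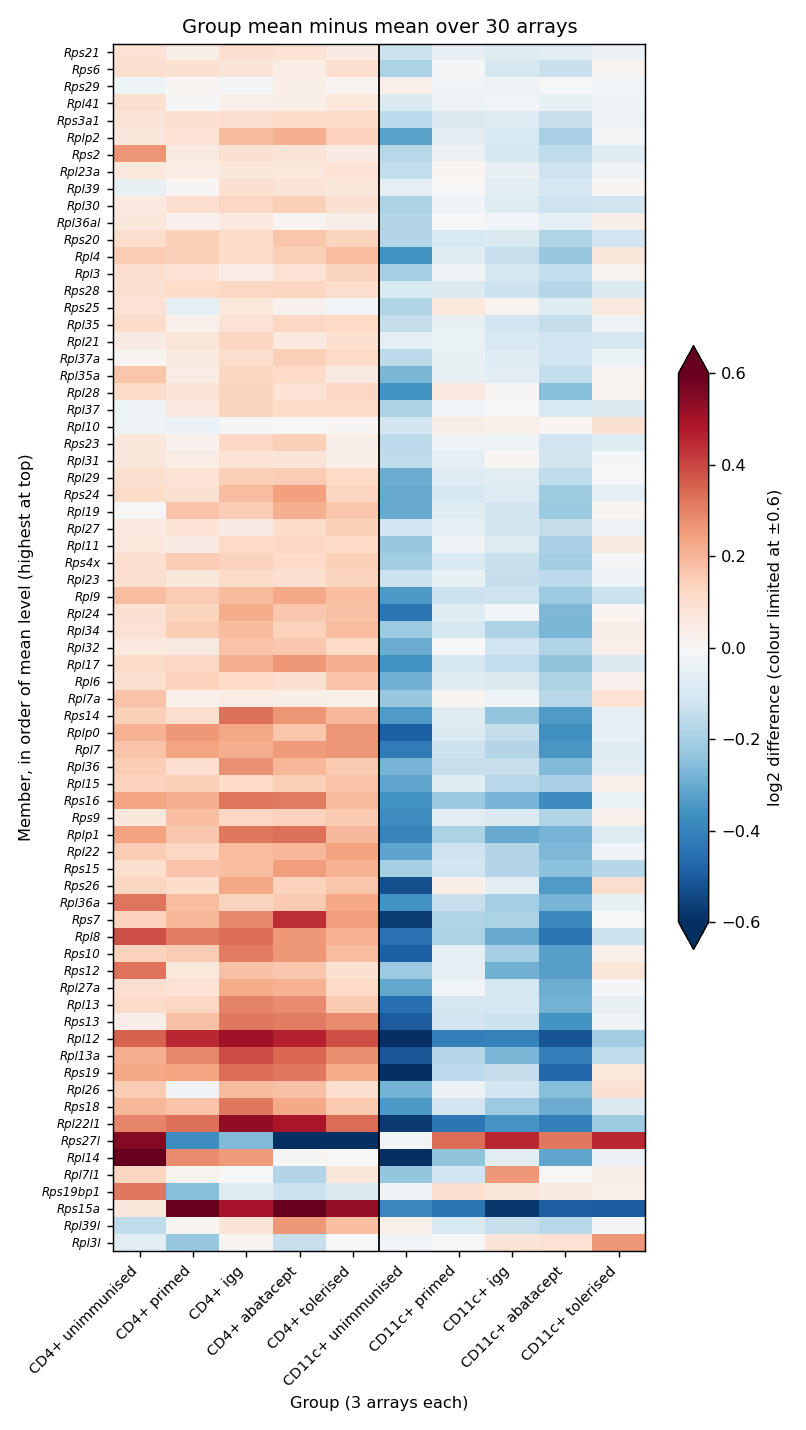
Group mean minus the member's mean over all 30 arrays (log2, colour limited at 0.6 either way) for the 71 members, in order of signal, in the 10 groups of 3 arrays. CD11c+ unimmunised mice hold the lowest group mean of 55 of the 70 tested members, a count not made over all genes. Rps27l is high in CD4+ unimmunised mice and in CD11c+ cells of every group but the unimmunised. Rpl14 is also highest in CD4+ unimmunised mice.

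Differences between the cell types in their response were tested as interactions. In tolerised and igg mice the cell types also differed in Eif2s3y, and the part of sex was not tested. For abatacept against igg, 2 members were called where 14.3% of all 10838 genes were called. Rps7 read 11.48, 11.47 and 11.45 under abatacept and 11.33, 11.30 and 11.31 under igg in CD4+ T cells, and 10.70, 10.61 and 10.61 against 10.89, 10.78 and 10.83 in CD11c+ cells, an interaction of 0.35 (SE 0.090, adjusted p = 0.01028). Its arrays thus moved apart in opposite directions, although neither within-cell-type difference passed (adjusted p = 0.1431 and 0.08086). Rps27l gave -0.42 (SE 0.13, adjusted p = 0.03595), a call lost in 8 of 12 fits that leave out 1 array: CD4+ igg array 2 or 3, CD4+ abatacept array 2 or 3, CD11c+ igg array 1 or 2, or CD11c+ abatacept array 1 or 2. The count was 1 in these except without CD11c+ igg array 2, where it was 2. For tolerised against primed mice 0 members were called with limma (6 at an unadjusted p under 0.05), where 11.2% of all genes were called. That count was 1 without CD4+ tolerised array 3 and 2 without CD11c+ tolerised array 2.

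Against unimmunised mice, in interactions added after the data were seen, 40 members were called for priming (1 higher and 39 lower in CD4+; 41.9% of all genes called, 14.6% higher and 27.3% lower) and 45 for tolerisation (1 higher, 44 lower; 49% of all genes called, 16.2% higher and 32.8% lower). The medians were -0.22 and -0.24, but centring removed shifts of -0.31 and -0.38 and turned them to 0.087 and 0.14. Rps27l gave the largest values, -1.27 (SE 0.13) and -1.65 (SE 0.13), since it fell in CD4+ T cells and rose in CD11c+ cells by 0.35 (SE 0.093) after priming and by 0.47 (SE 0.093) in tolerised mice. Rps26 gave -0.59 (SE 0.094) in both. Tolerised CD4+ and CD11c+ arrays also differed in Eif2s3y, and the part of sex was not tested.

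**Figure D5:**
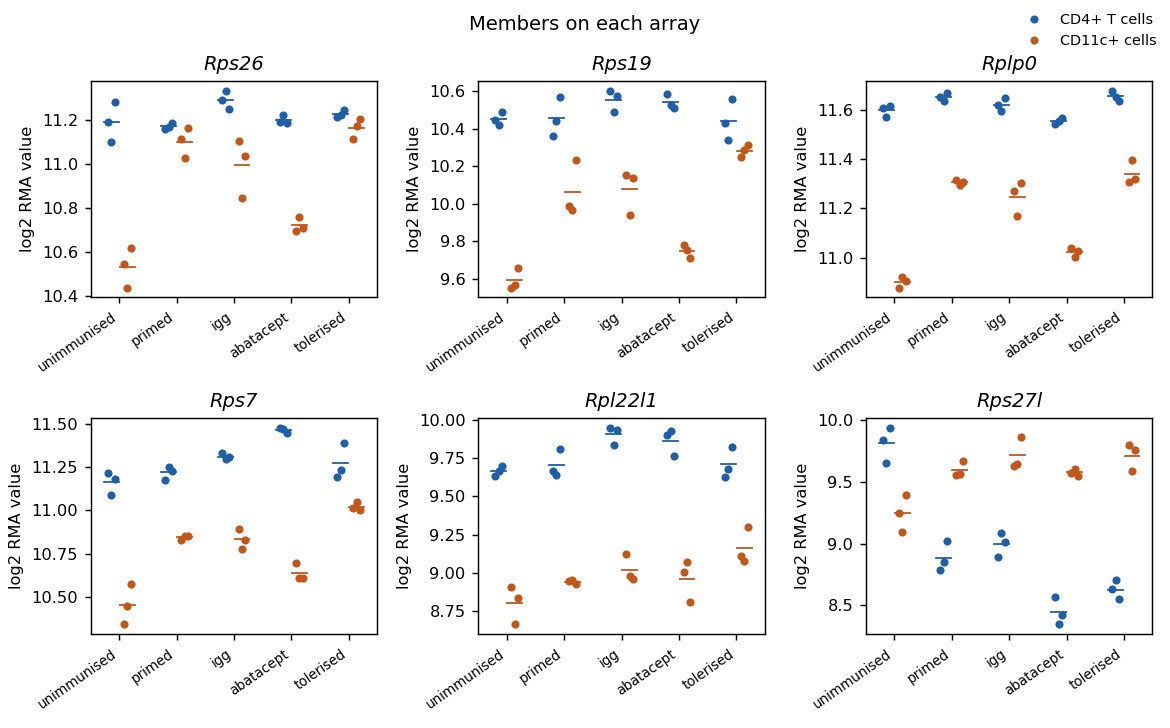
Log2 RMA signal of 6 members on each array (points) with group means (lines), in CD4+ T cells (blue) and CD11c+ cells (orange) over the 5 conditions. Rps26, Rps19, Rplp0 and Rps7 are lowest in unimmunised CD11c+ arrays and higher in tolerised ones, Rpl22l1 separates the cell types in every condition, and Rps27l falls in CD4+ T cells where it rises in CD11c+ cells.

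The paralogue pairs differed in how they varied. Rpl22, whose loss in mice blocks development of αβ T cells, ran from 11.25 to 11.42 in CD4+ and from 10.79 to 11.16 in CD11c+ arrays, a cell type difference of 0.36 (SE 0.024), less than the 0.79 of Rpl22l1. In CD11c+ cells of tolerised mice Rpl22 rose by 0.29 (SE 0.063) and Rpl22l1 by 0.36 (SE 0.093). Rpl36a differed between cell types by 0.41 (SE 0.034) and Rpl36al by 0.082 (SE 0.024). Rpl7 differed by 0.46 (SE 0.024), and Rpl7l1 by 0.018 (SE 0.064), which did not pass. Rpl39 differed by 0.085 (SE 0.024) and Rpl39l, near background, by 0.15 (SE 0.068, adjusted p = 0.04521), a call lost in 19 of 30 fits that leave out 1 array. Rpl3 differed by 0.18 (SE 0.022), and Rpl3l was not tested. Rpl10 gave -0.023 (SE 0.022, adjusted p = 0.3507) and Rps4x, which is X-linked, 0.26 (SE 0.025). Rps27, Rpl10l and Rps4l are not analysed here.

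Other probe sets of the members bear on these values. Of 39 members called in primed CD11c+ cells, 12 had further probe sets above the array median, 18 in all, and 12 of these had the same sign. Of the 6 with the opposite sign, 5 had a mean signal under 7, and the brightest, of Rpl15, lay at 9.90 and differed by -0.013. The members concerned were Rpl11, Rpl15, Rpl22, Rps10, Rps13 and Rps24. A mean of all probe sets ended the primed calls of Rps10 (0.14, adjusted p = 0.2052), Rpl22 (0.074, adjusted p = 0.4164) and Rps6 (0.21, adjusted p = 0.06266), and the tolerised call of Rpl22 (0.099, adjusted p = 0.2491). Between cell types, 47 of 52 further probe sets had the same sign. Probe sets marked _x_ or _s_, which may also bind relatives or pseudogenes, stood for 24 members. Without such probe sets 61 members were tested, and 37 were called in primed (35 higher, 2 lower) and 44 in tolerised CD11c+ cells (43 higher, 1 lower). The main fit called 39 and 47 of 70, and the share of all genes called without such probe sets is not given here.

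Of 17 tested translation factors and other genes with TOP mRNAs, 11 were called higher and 0 lower in primed CD11c+ cells (median 0.22; 64.7% called, against 38.6% of all genes), and 13 and 0 in tolerised ones (median 0.21; 76.5% against 48.6%). Eif3h, a subunit of the eIF3 initiation complex, rose by 0.48 (SE 0.067) and 0.54 (SE 0.067), and Eif3k by 0.42 (SE 0.071) and 0.57 (SE 0.071). In CD4+ T cells the same list gave 1 higher and 1 lower in primed mice (11.8% called, against 47.4% of all genes). It gave 3 higher and 0 lower in tolerised mice (17.6% against 49.5%). Fau, a cytosolic ribosomal protein outside the naming rule, rose by 0.30 (SE 0.061) in primed and by 0.37 (SE 0.061) in tolerised CD11c+ cells.

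Of 45 tested ribosome biogenesis genes, 0 were called higher and 22 lower in primed CD4+ T cells (median -0.28; 48.9% called, against 47.4% of all genes), and 0 and 24 in tolerised ones (median -0.26; 53.3% against 49.5%). These shares are near the background, which for all genes was split between higher and lower. Wdr12, of the PeBoW complex, fell by 1.18 in each (SE 0.089), Nhp2, of the H/ACA particles that guide pseudouridylation, by 0.73 and 0.67 (SE 0.080), and Mrto4, an assembly factor of the stalk, by 0.75 and 0.65 (SE 0.085). Myc, an activator of these genes, fell by 0.66 and 0.51 (SE 0.10), and Eif4ebp1, a translation repressor under mTOR, by 2.31 and 2.30 (SE 0.13). Both came from a list of 7 tested regulators that did not move as a set. Of the 7, 2 were called higher and 2 lower in each comparison (57.1% called, against 47.4% and 49.5% of all genes). In CD11c+ cells the biogenesis list gave 9 higher and 1 lower in primed mice (22.2% called, against 38.6%) and 9 higher and 4 lower in tolerised mice (28.9% against 48.6%). Of 72 mitochondrial ribosomal proteins, 30 were lower and 2 higher in primed CD4+ T cells (44.4% called) and 47 lower and 1 higher in tolerised ones (66.7%). In CD11c+ cells 18 were higher and 1 lower in primed mice (26.4%), and 36 higher and 3 lower in tolerised mice (54.2%).

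The promoter letters were counted in members called and not called in tolerised CD11c+ cells. CTTTC was found in 17 of 38 called members with a promoter and in 8 of 19 not called, CTTCC in 14 and 10, the ETS letters in 14 and 9, and the YY1 letters in 2 and 2. These are counts with no test. Across members, the rise in tolerised CD11c+ cells was smaller for members with higher signals, with a median of 0.15 for members above and 0.32 for members below the median signal (Spearman's rho -0.49), and whether signal near the top of the range limits the measured difference was not tested.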

How the data were processed

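Gene expression was measured on 30 Affymetrix mouse arrays. The authors made the deposited log2 values, 1 for each array and probe set, with RMA, per the submitters' processing notes, whose version is not stated there. Of 45118 probe sets, 28898 had 1 symbol, 551 several and 15669 none in the platform annotation. Only those with 1 symbol were used, which left out 15 member probe sets with several symbols. A gene was tested if it exceeded the median of its array on 3 or more arrays of a fit, 10322 in CD4+, 10203 in CD11c+ and 10838 over all arrays.

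Differences were fitted with limma 3.58.1 in R 4.3.3 (lmFit, eBayes) over the 15 arrays of a cell type (10 residual degrees of freedom) or all 30 (20). A gene was called at a two-sided Benjamini-Hochberg adjusted p under 0.05 over all genes tested. The procedure was tested on simulated data. No set test was run. The number of arrays limits the precision.

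Members and lists were chosen with earlier results of these data known. Named members were, per comparison, of those called without overlap the 4 largest rises and 4 largest falls, all called where 5 or fewer were, and always the paralogue pairs, stalk proteins, Rps6, Rps19bp1, the 3 brightest and 3 dimmest members and those whose probe sets disagree. From other lists at most 3 called genes a comparison were named; Fau was added after its values were seen. Of 17 comparisons 4 were added after the data were seen, as were fits without the arrays high in Amy1 and without the CD4+ unimmunised arrays. Groups shared replicate numbers, but same-numbered arrays did not deviate together (median correlation -0.0047 in CD4+ and 0.017 in CD11c+), so no block was used. The other alternatives were a fit on the compared groups alone, no filter, another quantile normalization, centring, array weights, the replicate block, the mean of all probe sets, no _x_ or _s_ probe sets, and leaving out each array. Positions and promoters came from RefSeq on GRCm38.p6, and plots were made in Python 3.11.15 (matplotlib 3.10.9).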

Additional observations from a re-analysis of the deposited data

Results flagged for a closer look

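Effects of the same contrast differed between CD4+ T cells and CD11c+ cells by a test of the difference itself (limma interaction, CD4+ minus CD11c+, log2). For abatacept against control IgG the test called 2 members, Rps27l at -0.42 and Rps7 at 0.35.

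For primed against unimmunised mice, where 41.9% of all genes were called, it called 40 members. Among them were Rps27l at -1.27, Rpl14 at -1.01, Rps19bp1 at -0.70, Rps26 at -0.59 and Rps15a at 0.60. For tolerised against unimmunised mice, where 49% of all genes were called, it called 45 members. These included Rps27l at -1.65, Rpl14 at -1.51, Rps19 at -0.70, Rps26 at -0.59 and Rps15a at 0.57. Centring changed the sign of the median member difference in both contrasts. The CD4+ groups of these contrasts differ in tissue as well as in treatment, and the 2 cannot be told apart. Tolerised CD4+ and CD11c+ arrays also differ in Eif2s3y, and the part of sex was not tested. Rpl14 fell in CD4+ T cells and rose in CD11c+ cells, while Rps15a rose in CD4+ T cells at signals near the array median.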

How the results depend on the processing

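Centring gave 25 and 55 calls in primed and tolerised CD4+ T cells and 11 and 28 in CD11c+ cells. It also gave 3 calls for CD4+ abatacept against igg, 2 for the same contrast in CD11c+ cells, 11 for its interaction, 14 for CD11c+ igg against unimmunised, and 20 and 26 for the interactions of priming and tolerisation. It changed the sign of 7 medians, to -0.0122 (CD11c+ igg) and -0.0545 (CD11c+ abatacept) against unimmunised, to 0.0867 and 0.1403 for those interactions, and, from values within 0.02 of 0, to 0.1408 (CD4+ primed against unimmunised), 0.1365 (CD4+ abatacept against igg) and 0.0558 (interaction of tolerised with primed mice). A fit on the compared groups alone called 4 and 3 members in primed and tolerised CD4+ T cells, 23 in primed CD11c+ cells, 1 for CD11c+ abatacept against igg, 11 for CD11c+ igg against unimmunised, and 25 and 24 for the interactions, with fewer arrays to estimate the spread. Another quantile normalization gave 19 for CD11c+ igg against unimmunised and 4 for the abatacept interaction. Array weights gave 13 for CD11c+ abatacept against igg, 7 for its interaction and 1 for the interaction of tolerised with primed mice. Without the filter the first 2 of these were 1 and 1. The mean of probe sets gave 11 for primed CD4+ T cells, 3 for CD4+ abatacept against igg and 7 for its interaction, and without _x_ or _s_ probe sets CD4+ abatacept against igg gave 2 and CD11c+ abatacept against unimmunised 1. The replicate block, for numbers that showed no pairing within a cell type, moved 1 count beyond 1.5 times, CD11c+ abatacept against unimmunised from 0 to 1. Without the arrays high in Amy1 the CD11c+ counts were 18 (primed), 29 (tolerised), 4 (igg) and, for abatacept against igg, 0. Apart from the centring splits given above, the share of all genes called under these alternatives is not given here. The cause of these moves was not tested.

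Leaving out each array in turn gave 5 to 7 and 6 to 9 calls in primed and tolerised CD4+ T cells, 25 to 39 and 44 to 47 in CD11c+ cells, 0 to 5 for CD11c+ abatacept against igg, 12 to 29 and 0 to 1 for CD11c+ igg and abatacept against unimmunised, 64 to 65 between cell types, and 1 to 2, 0 to 2, 30 to 44 and 36 to 46 for the interactions of abatacept, of tolerised against primed, of priming and of tolerisation. Shares of all genes called with an array left out are not given here. The median difference between cell types was positive in every fit run. Signals near the array median limit Rps15a and Rpl39l.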
